A study of Homo sapiens with 6 samples.

Results

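The subunits of the oxidative phosphorylation system were followed in RNA-seq libraries of HCT116 cells, a human colorectal carcinoma line, with and without the histone demethylase LSD1. The members were the protein-coding genes whose symbols start with NDUFA, NDUFB, NDUFC, NDUFS, NDUFV, UQCR, COX4 to COX8, ATP5 or MT-, together with SDHA, SDHB, SDHC and SDHD, and without the assembly factors. This rule found 103 of the 60240 genes in the count table, 90 of them nuclear and 13 mitochondrial. The nuclear members comprised 40 genes named for complex I, 4 for complex II, 9 for complex III, 17 for complex IV and 20 for complex V. The mitochondrial members comprised 7 genes of complex I, 1 of complex III, 3 of complex IV and 2 of complex V. The rule used names alone, so it also took in the readthrough genes NDUFC2-KCTD14 and ATP5MF-PTCD1 and the ATP synthase inhibitor ATP5IF1. It placed NDUFA4, a protein now assigned to complex IV, under complex I.

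The study held 3 WT and 3 LSD1 KO libraries, numbered 1 to 3 in each group, and both groups grew in McCoy's 5A medium with fetal bovine serum. LSD1, encoded by KDM1A, had been disrupted with CRISPR-Cas9 and a guide in exon 1, and knockout cells had been expanded from individual clones after puromycin selection. A clone can differ from the parental line in more than the edited gene, and the labels do not say whether the numbered libraries were separate cultures. The study's methods state in general that experiments had biological replicates. The errors below measure the spread between these libraries, which may be technical in part. Libraries were made from poly(A) RNA and held 25379279 to 29186963 counts. KDM1A had 231, 224 and 213 CPM in WT replicates 1, 2 and 3 and 29.9, 27.6 and 27.8 CPM in LSD1 KO replicates 1, 2 and 3, a log2 fold change of -2.97 (SE 0.15, edgeR q = 0.000451). All 8 colon epithelium markers had counts, and their summed level was 2042 to 3815 CPM in WT and 2418 to 3156 CPM in LSD1 KO. Among them EPCAM had 191, 248 and 173 CPM in WT and 134, 77.5 and 101 CPM in LSD1 KO, with groups that did not overlap. It was called lower by edgeR with the block (q = 0.0788) but not by edgeR without it. DESeq2 without the block called 1 of the tested epithelium markers. Of the 6 epithelium markers tested, 5 had a log2 fold change below 0 and the median was -0.27, 2 had every LSD1 KO library below every WT library (3.51% of all genes), and KRT19 alone was above 0, at 0.42, while VIL1 and LGALS4 had at most 0.377 CPM. The 5 fibroblast markers together had 20.5 to 24.2 CPM in WT and 30.3 to 34.4 CPM in LSD1 KO, nearly all from COL1A1, since COL1A2, COL3A1 and DCN each had at most 5 counts over all libraries. COL1A1 had a log2 fold change of 0.52, and was called higher with the block (edgeR q = 0.0628) but not without it. The summed leukocyte, endothelial and muscle markers stayed at or below 2.08 CPM in every library. The part of these differences in the results below was not tested.

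Oxidative phosphorylation takes place in the inner mitochondrial membrane. Complex I (NADH dehydrogenase) and complex II (succinate dehydrogenase) pass electrons to ubiquinone, complex III passes them on to cytochrome c, and complex IV (cytochrome c oxidase) hands them to oxygen. Complexes I, III and IV pump protons, and complex V (ATP synthase) uses the resulting gradient to make ATP. All complexes but complex II combine subunits from both genomes: mitochondrial DNA is transcribed as long polycistronic RNAs that are cut into mRNAs, while the nuclear subunits are made in the cytosol and imported. Colorectal cancer cells in culture use both glycolysis and respiration.

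The comparison of LSD1 KO with WT addressed whether mRNAs of these subunits changed when LSD1 was lost. None of the 83 nuclear members with enough counts to be tested, and none of the 13 mitochondrial members, was called at a q value under 0.1. In that edgeR fit 1 of 17672 genes, KDM1A itself, was called, a share of 0.00566%. At an unadjusted p under 0.05 there were also 0 members, against 3.12% of all genes. DESeq2 called 0 members and 0.281% of the genes it tested. A fit with the replicate number as a block called 282 genes, 1.6% of those tested, and again no member, although 4 nuclear and 6 mitochondrial members had an unadjusted p under 0.05 (13.4% of all genes) and all of them were higher in LSD1 KO.

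How far the data bound a change differed between the fits. Without the block, the 95% interval of the log2 fold change lay within 0.5 of 0 for 12 of 83 nuclear and 1 of 13 mitochondrial members, against 15.9% of all genes. With the block it did so for 78 of 83 nuclear and all 13 mitochondrial members, against 48.0% of all genes. Related lists had high shares with the block too, with 71 of 78 mitochondrial ribosomal proteins and 48 of 56 assembly factors. The same held for 24 of 27 genes of pyruvate entry and the citric acid cycle. The 5 nuclear members outside that band were COX6B2, NDUFA3, NDUFA4L2, NDUFB1 and NDUFC2-KCTD14.

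**Figure D1:**
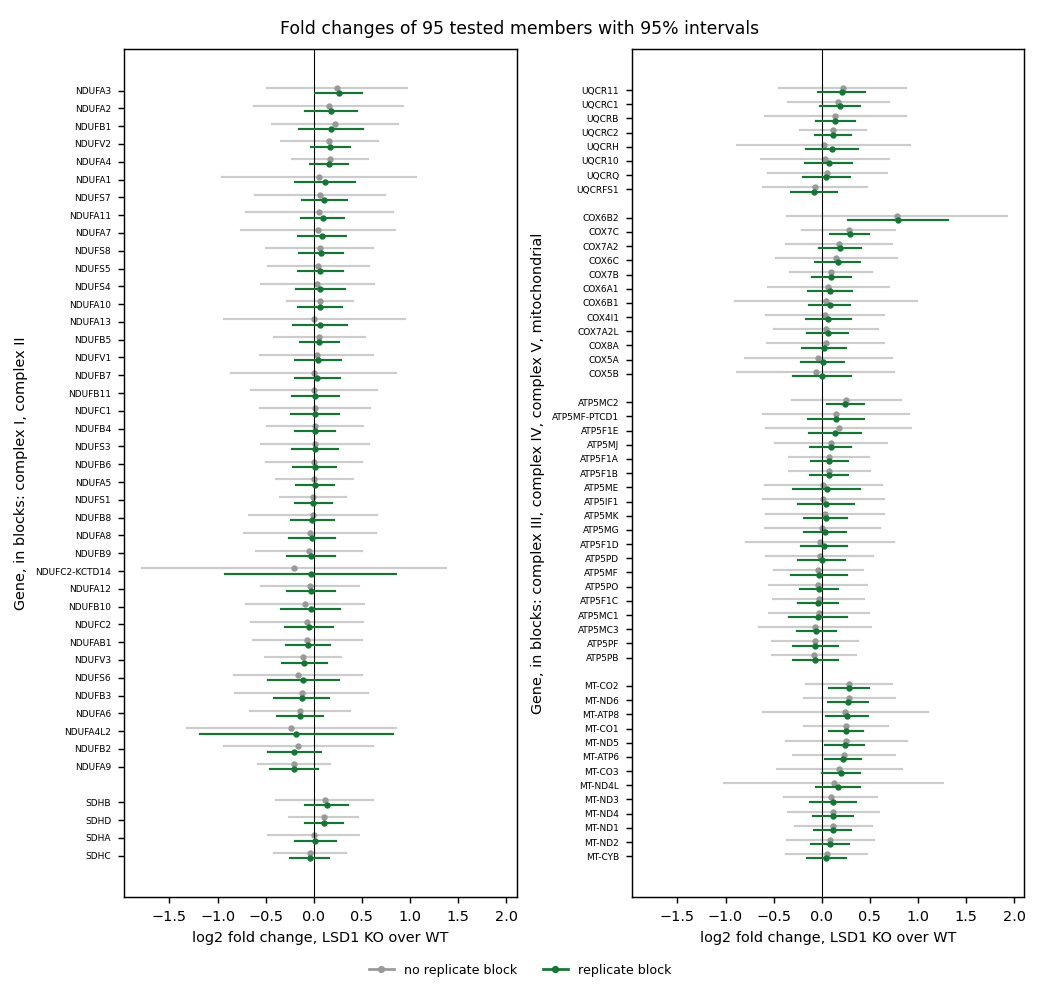
Log2 fold change of LSD1 KO over WT for 95 tested members (points) with 95% intervals (lines), without the replicate block in grey and with it in green, grouped by complex and with the mitochondrial mRNAs last. The points cluster near 0, all 13 mitochondrial points lie above 0, and COX6B2 has the largest value.

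The 13 mitochondrial members, each called an mRNA here although some share a transcript, were the most abundant members per kilobase. Together they took 5.63, 5.23 and 6.20% of all counts in WT and 5.90, 5.72 and 7.59% of all counts in LSD1 KO, or 5.69 ± 0.484% in WT and 6.40 ± 1.03% in LSD1 KO (SD, n = 3 each). The groups overlapped, and their difference of 0.715 percentage points was 0.123 without LSD1 KO replicate 3. The LSD1 KO library had 1.05, 1.09 and 1.22 times the share of the WT library of the same number. In bulk RNA, more mitochondrial genomes per cell and more RNA from each genome cannot be told apart. All 13 had a log2 fold change above 0, with a median of 0.18 and a range of 0.050 to 0.29, where 50.1% of all genes were above 0 and the median over all genes was 0.00084. With a correction for transcript length and GC content 12 of 13 were above 0. The size rested on single libraries: the median was 0.059 without LSD1 KO replicate 3, with 10 of 13 above 0, and 0.069 without WT replicate 2, with 9 of 13 above 0. These mRNAs come from shared precursor transcripts and share libraries, so the 13 values are not 13 separate observations. The 2 mitochondrial rRNAs, which poly(A) selection captures poorly, took 0.608, 1.03 and 0.953% of counts in WT and 0.656, 1.17 and 1.11% of counts in LSD1 KO.

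Levels per kilobase of transcript were highest for the 3 mRNAs of complex IV and for MT-ATP6. MT-CO1, the catalytic subunit of complex IV, was highest at 9869.7 CPM per kb in WT and 11766 in LSD1 KO. It had 13623, 15330.0 and 16704 CPM in WT and 15750.0, 17839 and 20841 CPM in LSD1 KO, with the highest WT library inside the LSD1 KO range, and its log2 fold change was 0.25 (95% interval -0.18 to 0.69) without and 0.25 (95% interval 0.073 to 0.42) with the block (edgeR q = 0.21). MT-CO2, which receives electrons from cytochrome c, had 5694, 7432 and 6042 CPM in WT and 6664, 8254 and 8398 CPM in LSD1 KO and a log2 fold change of 0.28 (95% interval -0.16 to 0.73). MT-CO3, the other mitochondrial core subunit of complex IV, had 4828, 9087 and 7486 CPM in WT and 5825, 9250.3 and 9238 CPM in LSD1 KO, a wide spread in both groups that put replicate 1 lowest each time, and a log2 fold change of 0.18 (95% interval -0.46 to 0.83). The 3 complex IV mRNAs were higher in LSD1 KO in each of the 3 same-numbered pairs, as were 8 of the 13 mitochondrial mRNAs and 18.8% of all genes.

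MT-ATP6, the proton channel subunit of complex V, had 5787, 4225 and 5998 CPM in WT and 6284, 4853 and 7611 CPM in LSD1 KO and a log2 fold change of 0.23 (95% interval -0.30 to 0.76). MT-CYB, the cytochrome b of complex III, had the smallest difference, with 2412, 2014 and 2453 CPM in WT and 2238, 2137 and 2749 CPM in LSD1 KO and a log2 fold change of 0.050 (95% interval -0.37 to 0.48). Of the 7 complex I subunits, which form its membrane arm, MT-ND6 had the largest log2 fold change, 0.29 (95% interval -0.18 to 0.76), from 824, 1086 and 963 CPM in WT and 919, 1280.3 and 1305 CPM in LSD1 KO. MT-ND6 is the single protein gene on the light strand of mitochondrial DNA, and a strand setting of the counting is not given in the sources used here, so its reads and those of the RNA opposite it cannot be told apart. MT-ND5 was lowest per kilobase, at 1569.8 CPM per kb in WT and 1874 in LSD1 KO, and had 3099.5, 2105 and 3329 CPM in WT and 3444, 2347 and 4394 CPM in LSD1 KO with a log2 fold change of 0.26 (95% interval -0.37 to 0.88). The remaining 5 complex I mRNAs, MT-ND1, MT-ND2, MT-ND3, MT-ND4 and MT-ND4L, had log2 fold changes of 0.090 to 0.12. Groups overlapped for every mitochondrial mRNA.

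**Figure D2:**
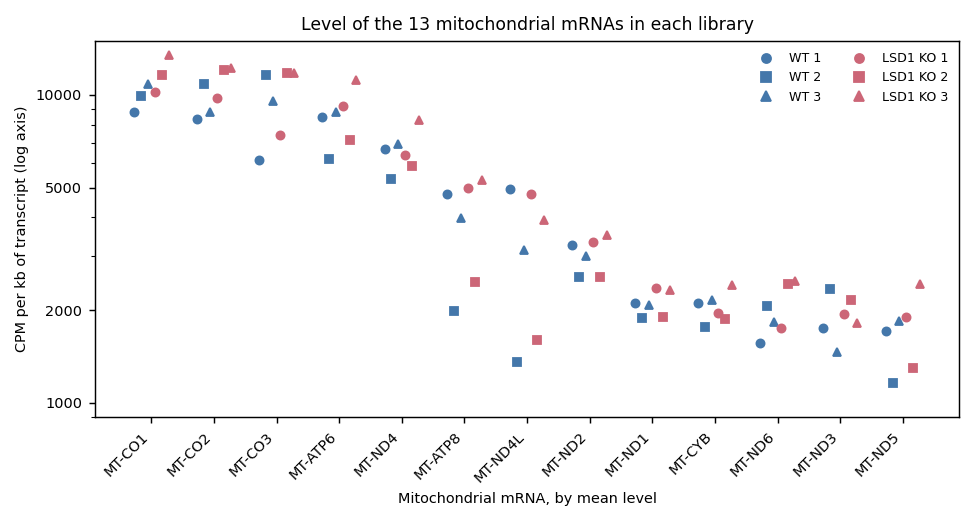
Level of each mitochondrial mRNA in each library, in CPM per kb of transcript on a log axis, with WT in blue and LSD1 KO in red and a marker shape for each replicate number. WT and LSD1 KO overlap for every mRNA, and replicate 2 (squares) is lowest in both groups for MT-ATP8 and MT-ND4L, among others.

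In the overlapping gene pairs MT-ATP8 with MT-ATP6 and MT-ND4L with MT-ND4, the upstream gene varied more between libraries than between groups. Each of these pairs is read from one bicistronic mRNA, with the end of the upstream frame lying inside the start of the downstream frame. The overlaps are shown because a fragment that lies within them matches both genes. Capitals mark the bases that both genes share, beginning with the start codon of the downstream gene, on the plus strand of chrM with GRCh37 coordinates and 20 bases on either side.
MT-ATP8 and MT-ATP6, chrM:8507-8592: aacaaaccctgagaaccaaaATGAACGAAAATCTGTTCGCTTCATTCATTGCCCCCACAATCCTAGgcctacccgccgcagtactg
MT-ND4L and MT-ND4, chrM:10740-10786: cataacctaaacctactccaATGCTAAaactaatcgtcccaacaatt
The first overlap is 46 bases long and the second 7 bases.

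MT-ATP8 had 988, 412 and 826 CPM in WT and 1033, 509.6 and 1097 CPM in LSD1 KO, and MT-ND4L had 1469.5, 402 and 933 CPM in WT and 1418, 475 and 1164 CPM in LSD1 KO. Replicate 2 was lowest in both groups for both genes. This was not particular to them, since replicate 2 was lowest for 8 of the 13 mitochondrial members in WT and 8 in LSD1 KO. Set against the partner on the same mRNA, MT-ATP8 had 17.1, 9.76 and 13.8 in WT and 16.4, 10.5 and 14.4 in LSD1 KO, in counts per 100 counts of MT-ATP6. MT-ND4L had 16.0, 5.46 and 9.81 in WT and 16.1, 5.85 and 10.2 in LSD1 KO, in counts per 100 counts of MT-ND4. The order of replicates 1, 3 and 2 was the same in WT and LSD1 KO for both ratios, and values within a same-numbered pair differed by at most a factor of 1.08. MT-ND6 per 100 counts of MT-ND5 went the other way, with 26.6, 51.6 and 28.9 in WT and 26.7, 54.5 and 29.7 in LSD1 KO, again highest in replicate 2 of both groups. No ratio separated the groups. MT-ATP8 and MT-ND4L have the shortest annotated lengths of the mitochondrial members, 207 and 297 bases, although each is part of a longer bicistronic mRNA. Fragment lengths of the libraries were not analysed here.

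**Figure D3:**
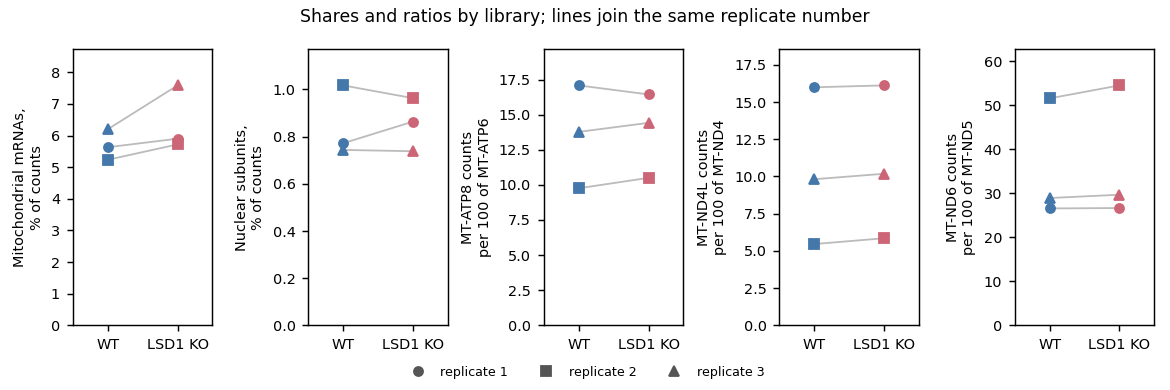
Shares of counts and count ratios in each library, with the WT and LSD1 KO library of the same number joined by a line and every axis starting at 0. The lines are flat next to the distance between replicate numbers in the 3 ratio panels, while the mitochondrial share is higher in LSD1 KO along each line.

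Copies of mitochondrial genes in the nuclear genome limit these counts. Of all 31-base words of MT-CO1, 66.7% also occurred in another annotated gene, and the pseudogene MTCO1P12 alone held 62.2%. MTATP6P1 held 61.3% of the words of MT-ATP6 and MTND2P28 held 56.9% of those of MT-ND2. MTATP6P1 received 6.01, 4.82 and 4.18 in WT and 7.64, 4.23 and 5.30 in LSD1 KO, in counts per 100 counts of MT-ATP6. MTND2P28 received 0.875, 0.425 and 0.620 in WT and 0.904, 0.467 and 0.790 in LSD1 KO, in counts per 100 counts of MT-ND2. At MT-CYB and MT-ND3 at most 4.95% of words were shared.

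The nuclear members took 0.772, 1.02 and 0.744% of counts in WT and 0.864, 0.963 and 0.738% of counts in LSD1 KO, with replicate 2 highest in both groups and no separation of the groups. Over the 83 that were tested the median log2 fold change was 0.015, with 50 above 0, and 0.043 with the block, with 58 above 0 (50.5% of all genes). The medians of the same-numbered pairs were 0.24, -0.12 and 0.016 for pairs 1, 2 and 3, so the direction turned with the pair. It also turned with single libraries, from a median of -0.15 without LSD1 KO replicate 2, with 14 of 83 above 0, to 0.26 without WT replicate 2, with 77 of 83 above 0, and with the length and GC correction, to -0.020 and 36 of 83. No nuclear member had every LSD1 KO library above, or every one below, all WT libraries, where 4.23% and 3.51% of all genes did. Higher values in LSD1 KO in all 3 pairs were seen for 17 of 83 (18.8% of all genes) and lower values in all 3 pairs for 0 of 83 (17.5%). The 17 were NDUFA2, NDUFA3, NDUFA4 and NDUFV2, then UQCRB, UQCRC1 and UQCRC2, then COX6B1, COX6B2, COX6C, COX7A2, COX7B and COX7C, and ATP5F1A, ATP5F1B, ATP5MC2 and ATP5MF-PTCD1.

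The nuclear members varied together by replicate number. WT replicate 2 was the highest WT library for 77 of the 83, and LSD1 KO replicate 2 the highest LSD1 KO library for 63, where over all genes replicate 2 was highest for 6871 and 6627 of 17672. The lean was not particular to the subunits, since replicate 2 was highest for 63 and 46 of 78 mitochondrial ribosomal proteins in WT and LSD1 KO. It was highest for 40 and 24 of 56 assembly factors and for 21 and 7 of 34 genes of mitochondrial gene expression. Among the nuclear members the highest WT library stood at a median of 1.69 times the lowest, against 1.50 over all genes. COX6B1, a subunit that joins the dimer of complex IV, had 42.6, 123 and 74.7 CPM in WT and 50.4, 123 and 74.8 CPM in LSD1 KO, with replicate 2 above both others in each group and same-numbered libraries of the groups close together. Across the 83 genes the log2 difference of replicate 1 from replicate 3 in WT correlated with that in LSD1 KO at r = 0.906, and that of replicate 2 from replicate 3 at r = 0.767. These are correlations across genes that share the libraries, given as a description. The log2 level of replicate 2 over the other libraries correlated with log2 transcript length at r = -0.433 and with GC content at r = 0.292 over the 82 genes with a canonical transcript. The nuclear members were short, with a median canonical transcript of 760.5 bases against 2855 for all tested genes.

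**Figure D4:**
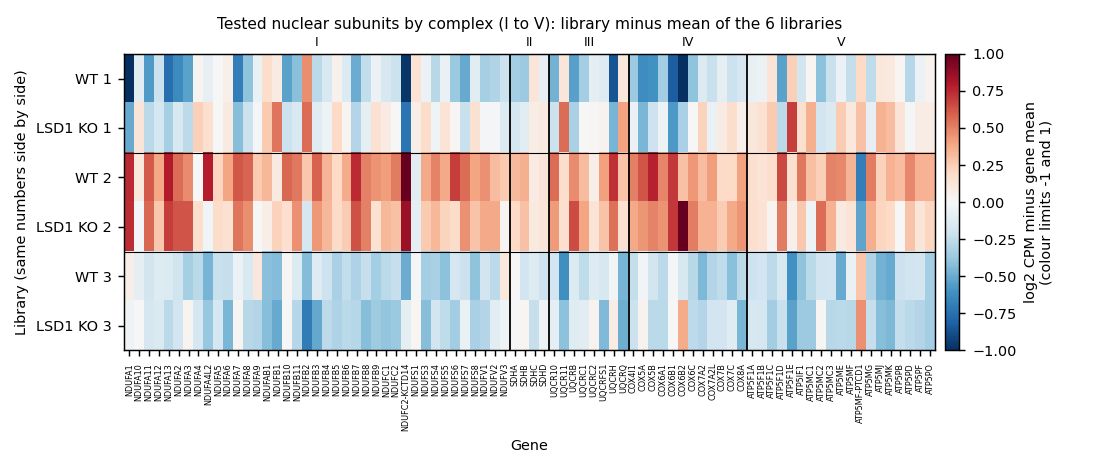
Log2 CPM of 82 tested nuclear members in each library minus the gene's mean over the 6 libraries, with genes in columns by complex and same-numbered libraries in adjacent rows. The rows of WT 2 and LSD1 KO 2 are mostly above the mean for both genotypes, as in 77 and 63 of all 83 tested genes, and rows of the same number resemble each other more than rows of the same genotype.

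Complex I had 40 nuclear members, all tested, with a median log2 fold change of 0.0056 and 21 above 0. Its nuclear core subunits carry the flavin and the iron-sulfur clusters of the peripheral arm. NDUFV1, the flavin-binding subunit that oxidises NADH, had a log2 fold change of 0.028 (95% interval -0.56 to 0.61), and its partner NDUFV2 had 0.16 (95% interval -0.34 to 0.66). The values were -0.0093 for NDUFS1, 0.010 for NDUFS3, 0.067 for NDUFS7 and 0.059 for NDUFS8, with a median of 0.044 over these 6 core subunits and -0.00082 over 33 other genes of the complex. NDUFS1, the largest iron-sulfur subunit, had 132, 111 and 118 CPM in WT and 125, 112 and 121 CPM in LSD1 KO, with overlapping groups. Among the accessory subunits NDUFA3 had the largest log2 fold change. It had 15.8, 31.9 and 18.2 CPM in WT and 19.1, 35.5 and 23.3 CPM in LSD1 KO, higher in LSD1 KO in each pair. The log2 fold change was 0.24 (95% interval -0.49 to 0.97) and, with the block, 0.26 (95% interval 0.016 to 0.50) at an edgeR q of 0.34. NDUFA9, which had the lowest value of complex I with the block and was picked after its values were seen, had 54.3, 68.0 and 61.5 CPM in WT and 56.4, 56.7 and 46.3 CPM in LSD1 KO and a log2 fold change of -0.21 (95% interval -0.58 to 0.17). NDUFC2-KCTD14, a readthrough gene that shared 45.7% of its 31-base words with NDUFC2, had 0.453, 2.38 and 0.629 CPM in WT and 0.536, 1.62 and 0.832 CPM in LSD1 KO, and its log2 fold change of -0.21 turned to 0.31 when replicate 2 of both groups was left out. NDUFB9 had the highest level per kilobase in complex I, 198 CPM per kb in WT and 192 in LSD1 KO.

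Complex II also works in the citric acid cycle and has no mitochondrial subunit. Among the nuclear parts of the complexes it had the narrowest range of log2 fold changes, from -0.042 to 0.11 over its 4 members. It also had the fewest nuclear members, and such a range tends to widen with the number of genes. SDHA, the flavoprotein that oxidises succinate, had 122, 193 and 154 CPM in WT and 137, 177 and 154 CPM in LSD1 KO and a log2 fold change of -0.0018 (95% interval -0.47 to 0.47). SDHB, its iron-sulfur partner and the member of the complex with the highest level per kilobase, had 74.4, 122 and 83.7 CPM in WT and 88.5, 117 and 96.9 CPM in LSD1 KO and a log2 fold change of 0.11 (95% interval -0.39 to 0.61). The membrane anchors SDHC and SDHD had log2 fold changes of -0.042 (95% interval -0.41 to 0.33) and 0.10 (95% interval -0.26 to 0.46). With the block all 4 intervals lay within 0.5 of 0.

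In complex III, 7 of 8 tested nuclear members had a log2 fold change above 0, with a median of 0.088. Medians of the same-numbered pairs 1, 2 and 3 were 0.27, -0.071 and 0.098. UQCRC1 and UQCRC2, the core proteins, had 0.17 and 0.12 and were higher in LSD1 KO in each pair. UQCR11, a small accessory subunit, had the largest value, 0.22 (95% interval -0.44 to 0.88), from 82.2, 85.4 and 49.3 CPM in WT and 111, 84.3 and 56.8 CPM in LSD1 KO, but LSD1 KO replicate 2 was below WT replicate 2. UQCRFS1, the Rieske iron-sulfur protein, had 99.5, 145 and 97.3 CPM in WT and 111, 133 and 80.2 CPM in LSD1 KO and a log2 fold change of -0.073 (95% interval -0.62 to 0.47). UQCRH, the hinge protein, was highest per kilobase at 279 CPM per kb in WT and 284 in LSD1 KO, with a 77.5 to 234 CPM range within WT and 102 to 206 CPM within LSD1 KO.

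In complex IV, 10 of 12 tested nuclear members had a log2 fold change above 0, and all 12 did with the block. The medians were 0.057 and 0.083, and none was called. Medians of the same-numbered pairs 1, 2 and 3 were 0.30, 0.020 and 0.040. COX6B2, the testis form of COX6B1, had the largest fold change of all nuclear members. It had 29, 90 and 75 counts in WT and 62, 168 and 95 in LSD1 KO, or 1.09, 3.40 and 2.48 CPM in WT and 2.21, 6.18 and 3.59 CPM in LSD1 KO, and was higher in LSD1 KO in each same-numbered pair, although WT replicates 2 and 3 were above LSD1 KO replicate 1. Its log2 fold change was 0.78 (95% interval -0.36 to 1.92) without the block and 0.79 (95% interval 0.27 to 1.31) with it, at an edgeR q of 0.19. Of its 31-base words 32.0% occurred in other annotated genes, so part of its counts could be split with them. COX7C, a small structural subunit, had 117, 155 and 102 CPM in WT and 153, 176 and 125 CPM in LSD1 KO and a log2 fold change of 0.28 (95% interval -0.20 to 0.76) without and 0.29 (95% interval 0.088 to 0.49) with the block, at an edgeR q of 0.21. COX5B, a zinc-binding subunit, had the lowest value, -0.065 (95% interval -0.88 to 0.75), from 45.6, 118 and 61.1 CPM in WT and 60.2, 97.7 and 57.4 CPM in LSD1 KO, and its sign turned with the block, to 0.0064. COX4I1, the ubiquitous form of the regulatory subunit COX4, had the highest level per kilobase in the complex, 437 CPM per kb in WT and 449 in LSD1 KO, with a log2 fold change of 0.037 (95% interval -0.58 to 0.65).

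Leaving out pair 2, whose libraries were the highest of their group for most nuclear members, changed calls. In the fit with the block and without that pair, 1 of 83 nuclear and 5 of 13 mitochondrial members were called, all higher in LSD1 KO. Of all genes tested 3.05% were called higher, a larger share than among the nuclear members and a smaller one than among the mitochondrial members. The mitochondrial members share precursor transcripts and are not separate observations. The 6 called members were COX7C with a log2 fold change of 0.33 (edgeR q = 0.0809), MT-CO2 with 0.33 (q = 0.00767), MT-CO3 with 0.27 (q = 0.0245), MT-CO1 with 0.25 (q = 0.0252), MT-ND5 with 0.26 (q = 0.0669) and MT-ND6 with 0.28 (q = 0.0852). With all 3 pairs the block gave the same 6 genes edgeR q values of 0.21 to 0.38. The fit without pair 2 rests on 2 pairs of libraries, and 5.85% of all genes were called in it in either direction. The block without pair 1 or pair 3 was not run. The fit without pair 2 keeps LSD1 KO replicate 3. Leaving out that library alone, without the block, put the median log2 fold change of the mitochondrial mRNAs at 0.059.

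In complex V, 10 of 19 tested nuclear members had a log2 fold change above 0 and the median was 0.0072. ATP5F1B, the catalytic beta subunit, was the highest nuclear member per kilobase, at 569 CPM per kb in WT and 601 in LSD1 KO. It had 983, 1123 and 894 CPM in WT and 1137, 1130.4 and 904 CPM in LSD1 KO and a log2 fold change of 0.080 (95% interval -0.34 to 0.50). The c ring of the rotor is encoded by ATP5MC1, ATP5MC2 and ATP5MC3, whose mature proteins are the same. ATP5MC2 had 94.6, 148 and 109 CPM in WT and 109.8, 185 and 126 CPM in LSD1 KO, with a log2 fold change of 0.26 (95% interval -0.31 to 0.82) without and 0.25 (95% interval 0.053 to 0.44) with the block (edgeR q = 0.26). ATP5MC1 had 99.5, 121 and 81.4 CPM in WT and 125, 94.5 and 76.2 CPM in LSD1 KO and ATP5MC3 had 134, 221 and 137 CPM in WT and 141, 198 and 129 CPM in LSD1 KO, with log2 fold changes of -0.027 (95% interval -0.55 to 0.49) and -0.069 (95% interval -0.65 to 0.51). ATP5PB, a subunit of the peripheral stalk, had the lowest value of the complex, -0.077 (95% interval -0.51 to 0.36), from 188, 229 and 159.6 CPM in WT and 203, 186 and 157 CPM in LSD1 KO.

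Several subunits have paralogues used in other tissues or conditions, and most of these were at or near 0 counts in both genotypes. COX4I2, a form of lung and of low oxygen, had 0, 0 and 0 counts in WT and 0, 1 and 0 in LSD1 KO, beside 256, 466 and 279 CPM in WT and 316, 427 and 284 CPM in LSD1 KO for COX4I1. COX6A2, the heart and muscle form, had 0, 0 and 0 counts in WT and 0, 4 and 0 in LSD1 KO, all from 1 library, beside 111, 198 and 118 CPM in WT and 136, 193 and 117 CPM in LSD1 KO for COX6A1. COX7A1, another muscle form, had 3, 3 and 0 counts in WT and 5, 2 and 4 in LSD1 KO, whereas COX7A2 had 85.0, 116 and 68.4 CPM in WT and 109, 119 and 76.5 CPM in LSD1 KO and COX7A2L, a factor of supercomplex assembly, had 52.3, 81.5 and 49.8 CPM in WT and 58.4, 77.6 and 53.5 CPM in LSD1 KO. COX7B2 had no count in any library, which allows up to 3 counts per library or 0.113 CPM, beside 53.2, 64.6 and 47.5 CPM in WT and 59.9, 67.5 and 49.3 CPM in LSD1 KO for COX7B. COX8C, a testis form, had 0, 1 and 0 counts in WT and 2, 1 and 1 in LSD1 KO, beside 120.1, 178 and 111 CPM in WT and 139.7, 183 and 98.2 CPM in LSD1 KO for COX8A. UQCRHL, a near copy of UQCRH that shared 11.7% of its words with it, had 0, 9 and 0 counts in WT and 2, 0 and 3 in LSD1 KO, and ATP5MGL had 1, 0 and 3 counts in WT and 0, 1 and 3 in LSD1 KO. These 7 members did not pass the filter on low counts and were not tested. NDUFA4L2, the form of NDUFA4 induced by hypoxia, was tested at 0.604, 1.10 and 0.463 CPM in WT and 0.714, 0.625 and 0.492 CPM in LSD1 KO, with a log2 fold change of -0.23 (95% interval -1.32 to 0.85), and NDUFA4 had 79.8, 78.5 and 65.2 CPM in WT and 92.5, 88.8 and 69.5 CPM in LSD1 KO, with 0.17 (95% interval -0.23 to 0.56). Among the COX-named forms restricted to other tissues, COX6B2 alone had enough counts to be tested.

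**Figure D5:**
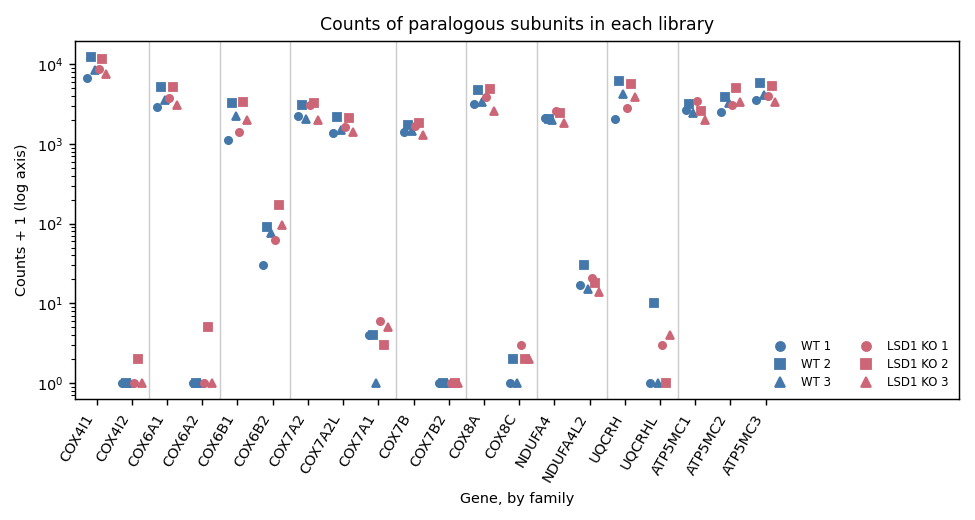
Counts plus 1 of paralogous subunits in each library on a log axis, with families separated by vertical lines, WT in blue, LSD1 KO in red and a marker shape for each replicate number. COX4I2, COX6A2, COX7A1, COX7B2, COX8C and UQCRHL sit at or below 9 counts in every library, while COX6B2 lies between 29 and 168 counts.

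The sequences upstream of COX6B1, COX6B2 and COX7C are shown, COX6B1 and COX6B2 because they are paralogues at very different levels and the last because its call depended on pair 2. Each run is the 250 bases before the RefSeq start site in GRCh38.p14, written on the strand of the gene, with capitals on matches to a motif of nuclear respiratory factor NRF1 (GCGCA and GCGC with 1 base of any kind between them), GABPA (CCGGAAG), YY1 (AAGATGGC), ESRRA (AAGGTCA), SP1 (GGGCGG) or NFY (CCAAT) on either strand.
COX6B1, chr19:35648073-35648322, plus strand: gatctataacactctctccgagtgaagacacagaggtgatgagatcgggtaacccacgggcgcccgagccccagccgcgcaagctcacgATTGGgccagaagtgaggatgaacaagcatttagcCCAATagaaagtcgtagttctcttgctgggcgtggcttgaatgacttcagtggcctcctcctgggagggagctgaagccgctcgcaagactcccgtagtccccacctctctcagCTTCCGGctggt
COX6B2, chr19:55354720-55354969, minus strand: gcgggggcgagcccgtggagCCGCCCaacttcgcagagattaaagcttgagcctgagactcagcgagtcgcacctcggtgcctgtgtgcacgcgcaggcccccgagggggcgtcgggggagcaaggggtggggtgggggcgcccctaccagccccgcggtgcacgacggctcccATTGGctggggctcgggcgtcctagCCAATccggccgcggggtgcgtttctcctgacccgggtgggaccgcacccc
COX7C, chr5:86617691-86617940, plus strand: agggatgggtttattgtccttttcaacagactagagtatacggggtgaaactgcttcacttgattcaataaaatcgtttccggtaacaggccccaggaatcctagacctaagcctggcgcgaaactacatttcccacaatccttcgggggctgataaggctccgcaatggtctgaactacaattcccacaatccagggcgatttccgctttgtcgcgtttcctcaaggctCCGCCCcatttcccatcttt

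RefSeq start sites were matched for 71 of the 90 nuclear members, 68 of them tested. In windows from 250 bases before to 50 after the start, the NRF1 motif was present at 23.5% of the 68 tested members and 11.1% of the 11889 tested genes with a window. The GABPA motif was present at 29.4% and 18.2%, the YY1 motif at 16.2% and 5.02%, and the ESRRA motif at 13.2% and 2.51%. SP1 and NFY motifs were present at 63.2% and 33.8% of members and at 68.6% and 36.5% of tested genes. The median GC content of the windows was 61.2% for the tested members and 65.0% for all tested genes. These are letter matches, not sites, and were not tested.

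The other genes of the pathway came from lists that hold no member, and none of their genes was called without the block or with it. The assembly factors numbered 56, all tested, with a median log2 fold change of -0.054 and 20 above 0. The medians of the same-numbered pairs were 0.090, -0.25 and -0.029, and the sign of the median turned, to 0.038, with the block and without pair 2. Those of complex I ranged from NDUFAF6 at -0.26 (SE 0.21) to NDUFAF3 at 0.11 (SE 0.23), and those of complex II from SDHAF2 at -0.10 (SE 0.20) to SDHAF4 at 0.51 (SE 0.49). SDHAF4, which loads flavinated SDHA onto the complex, had 1.89, 5.25 and 4.10 CPM in WT and 2.50, 7.91 and 5.67 CPM in LSD1 KO. For complex III the extremes were UQCC3 at -0.26 (SE 0.37) and UQCC1 at 0.063 (SE 0.16), and for complex IV HIGD1A at -0.27 (SE 0.22) and COA5 at 0.16 (SE 0.18). All 4 factors of complex V were below 0, from TMEM70 at -0.27 (SE 0.21) to ATPAF2 at -0.059 (SE 0.20).

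The 18 electron carriers and enzymes of ubiquinone synthesis had a median log2 fold change of -0.011, with 8 above 0, and of 0.040 with the block and without pair 2. CYC1, the cytochrome c1 of complex III that the naming rule does not reach, had 229, 321 and 267 CPM in WT and 283, 272 and 251 CPM in LSD1 KO, and CYCS, cytochrome c, had 189, 310.4 and 216 CPM in WT and 177, 264 and 209.7 CPM in LSD1 KO. COQ8A, a kinase-like protein of ubiquinone synthesis, had the largest value, 0.40 (SE 0.22), from 26.8, 40.0 and 36.2 CPM in WT and 41.6, 37.8 and 56.7 CPM in LSD1 KO, and PDSS1, which makes the ubiquinone tail, the lowest, -0.28 (SE 0.28). The 34 genes of mitochondrial gene expression had a median of -0.038, with pair medians of 0.073, -0.22 and -0.0083, and the sign of the median turned, to 0.018, with the block and without pair 2. They ranged from TSFM at -0.20 (SE 0.23) to the initiation factor MTIF3 at 0.35 (SE 0.24). POLRMT, the mitochondrial RNA polymerase, had 189.9, 266 and 236 CPM in WT and 229, 254 and 235 CPM in LSD1 KO, and TFAM, which packages and helps transcribe mitochondrial DNA, had 73.4, 67.5 and 69.5 CPM in WT and 77.6, 55.8 and 62.8 CPM in LSD1 KO. The 78 mitochondrial ribosomal proteins had a median of -0.058 with 19 above 0, with pair medians of 0.15, -0.23 and -0.052, and the sign of the median turned, to 0.022, with the block and without pair 2. They ranged from MRPS7 at -0.29 (SE 0.20) to MRPS28 at 0.26 (SE 0.25).

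Of 12 regulators of mitochondrial biogenesis, 11 were tested, with a median of -0.0023, and of 0.018 with the block and without pair 2. The untested one, PPARGC1A, the coactivator PGC-1 alpha, had no count in any library, which again allows up to 3 counts per library. NRF1 had 27.1, 29.2 and 28.7 CPM in WT and 26.8, 26.3 and 22.5 CPM in LSD1 KO and GABPA 71.2, 52.1 and 61.4 CPM in WT and 68.5, 56.9 and 62.8 CPM in LSD1 KO, while GABPB1, the partner of GABPA, had the lowest value, -0.26 (SE 0.19). MYC had the largest, 0.25 (SE 0.28), with 216, 382 and 359 CPM in WT and 350.2, 286 and 499 CPM in LSD1 KO, lower in LSD1 KO in pair 2 and higher in the other pairs. The 27 genes of pyruvate entry and the citric acid cycle had a median of 0.047 with 17 above 0. They ranged from PDHA1 at -0.096 (SE 0.18) to PC, pyruvate carboxylase, at 0.52 (SE 0.26), where PC had 12.3, 15.5 and 17.1 CPM in WT and 14.2, 26.6 and 23.4 CPM in LSD1 KO and an edgeR q of 0.18 with the block. In the fit with the block and without pair 2, 4 of the 224 tested genes of these lists were called, all higher in LSD1 KO, a smaller share than the 3.05% of all genes tested that were called higher. COQ8A and MYC were lower in LSD1 KO in the pair left out. The 4 genes were COQ8A, MYC, FASTKD1, a factor of mitochondrial RNA stability, and PDP1, the phosphatase that activates pyruvate dehydrogenase, the last pair picked after their values were seen.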

How the data were processed

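RNA-seq of 3 WT and 3 LSD1 KO HCT116 libraries was analysed. The authors trimmed reads with Trimmomatic 0.39, checked them with FastQC, ran Salmon 1.4.0 on a GENCODE transcript set (GRCh38), and deposited 1 table of estimated counts: unscaled whole numbers per gene. Library totals were 25379279 to 29186963 counts, and 3 counts correspond to 0.0993 to 0.113 CPM on the TMM scale. Floors express no more than counting error. The members and gene lists were chosen with earlier results of these data known.

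Counts were fitted over all genes with edgeR 4.0.16 in R 4.3.3 (TMM, filterByExpr by group, quasi-likelihood test, Benjamini-Hochberg adjustment, q value under 0.1), which tested 17672 genes. CPM values are counts scaled by TMM library size. Standard errors and 95% intervals were derived from each F statistic and its log2 fold change. DESeq2 1.42.0 was an alternative, as were other size factors and count filters, a length and GC correction, and leaving out libraries. A second fit held the replicate number as a block: deviations from the group means correlated at 0.513, 0.510 and 0.376 in same-numbered WT and LSD1 KO libraries and at -0.464 to 0.0159 in the others, over 17672 genes, so the numbers were taken to pair the libraries. Deviations within a group sum to 0 for each gene, so positive correlations in some combinations bring negative ones in others. This pairing comes from the data, not from the labels, and the intervals with the block rest on it. With 3 libraries per group, single values could not reach an exact permutation p below 0.1, and none was computed.

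The fits were tested on simulated data with a replicate effect of SD 0.3 (log2). Of 100 genes changed by a log2 fold of 1, edgeR without the block recovered 18, DESeq2 47 and edgeR with the block 94. Of 100 changed by 2 they recovered 95, 98 and 100. The fit with the block also called 18 unchanged genes, and the others called 0. Log2 folds below 1 were not included, so recovery of differences as small as those of the members was not tested. The pairing of the real libraries by number was not tested in this way. Symbols were matched for 58395 of 60240 genes through GENCODE 44 lifted to GRCh37, whose canonical transcripts gave length and GC content. Shared sequence was measured as 31-base words found in transcripts of another gene. Promoter windows came from RefSeq.

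Named members were, per complex, the largest rise and fall among those with a mean of at least 1 CPM and the highest per kilobase, families of paralogues, complex I core and SDH subunits, and, of the mitochondrial mRNAs, the extremes of level and change. MT-CO2, MT-CO3, MT-ATP6, MT-ATP8, MT-ND4, MT-ND4L, COX7C, NDUFA9, FASTKD1 and PDP1 were added after their values were seen. Of other lists, the largest rise and fall were named. The values of 1 member are not reported here, and it stays in the fits and counts.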

Additional observations from a re-analysis of the deposited data

How the results depend on the processing

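No member was called under any of the other size factors, filters or tests with all 6 libraries, nor with 1 library left out. The count over all genes moved from 1 to 114 with every gene that had a count, 95 with DESeq2, 282 with the replicate block, 415 with the block and a length and GC correction, 4 with that correction alone and 22 without replicate 2 of both groups. It was 1055 with the block and without pair 2, where 1 nuclear member, 5 mitochondrial mRNAs and 4 genes of the other lists were called. It ranged from 1 to 26 with 1 library left out, 26 without LSD1 KO replicate 2. Among alternatives chosen after seeing the data, DESeq2 with the block called 593 genes and 1 gene of the other lists, PDP1, and the block with mitochondrial RNAs left out of library sizes called 291. The block changed no call of a member with all pairs kept. The causes of these differences were not tested.

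With 1 library left out, the median log2 fold change ran from -0.15 to 0.26 for nuclear members and from 0.059 to 0.22 for mitochondrial mRNAs, and the difference in share of counts from 0.123 to 1.06 percentage points for mitochondrial mRNAs and from -0.0433 to 0.0972 for nuclear members.

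The sign of the log2 fold change of some uncalled genes turned. Without replicate 2 of both groups it turned to 0.14 for ATP5MC1, 0.036 for ATP5PB, 0.043 for ATPAF2, 0.12 for COX5B, 0.16 for NDUFA4L2, 0.10 for NDUFB9, 0.31 for NDUFC2-KCTD14, 0.060 for SDHA, 0.039 for SDHAF2 and -0.00096 for UQCC1. With the replicate block and without pair 2 it turned to 0.10 for ATP5MC1, 0.029 for ATP5PB, 0.039 for ATPAF2, 0.13 for COX5B, 0.15 for NDUFA4L2, 0.085 for NDUFB9, 0.31 for NDUFC2-KCTD14, 0.068 for SDHA and 0.026 for SDHAF2. With the replicate block it turned to 0.0064 for COX5B and 0.015 for SDHA. In DESeq2 with the block it turned to 0.0034 for COX5B and 0.011 for SDHA. With the block and mitochondrial RNAs left out of library sizes it turned to 0.00027 for COX5B and 0.0089 for SDHA. With the length and GC correction it turned to -0.0052 for COX6B1, -0.031 for COX8A, -0.025 for NDUFS3, 0.0046 for SDHA and -0.045 for UQCRH. With the block and that correction it turned to -0.053 for COX8A, -0.032 for NDUFS3 and 0.019 for SDHA. With at least 10 counts in every library it turned to 0.0010 for SDHA.

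With 1 library left out, 39 named genes changed sign, none of them called. Their log2 fold changes ran over the following ranges: ATP5MC1 -0.24 to 0.13, ATP5MC2 -0.0098 to 0.46, ATP5MC3 -0.30 to 0.20, ATP5PB -0.20 to 0.063, ATPAF2 -0.15 to 0.11, COX4I1 -0.17 to 0.35, COX5B -0.37 to 0.42, COX6A1 -0.18 to 0.38, COX6B1 -0.37 to 0.49, COX7A2L -0.15 to 0.30, COX7B -0.029 to 0.22, COX8A -0.21 to 0.27, MT-ATP8 -0.055 to 0.51, MT-CO3 -0.033 to 0.39, MT-CYB -0.069 to 0.10, MT-ND4 -0.040 to 0.20, MT-ND4L -0.25 to 0.61, MYC -0.0062 to 0.39, NDUFA3 -0.070 to 0.61, NDUFA4L2 -0.48 to 0.19, NDUFAF3 -0.094 to 0.31, NDUFB9 -0.21 to 0.19, NDUFC2-KCTD14 -0.77 to 0.87, NDUFS1 -0.072 to 0.064, NDUFS3 -0.14 to 0.22, NDUFS7 -0.18 to 0.43, NDUFS8 -0.11 to 0.30, NDUFV1 -0.19 to 0.30, NDUFV2 -0.019 to 0.38, PDHA1 -0.22 to 0.025, SDHA -0.15 to 0.17, SDHAF2 -0.21 to 0.049, SDHB -0.030 to 0.35, SDHC -0.12 to 0.056, UQCC1 -0.022 to 0.13, UQCC3 -0.59 to 0.22, UQCR11 -0.036 to 0.43, UQCRFS1 -0.27 to 0.13 and UQCRH -0.29 to 0.49. The untested paralogues had at most 9 counts in any library, too few for a difference to be tested.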
